A study of Mus musculus with 4 samples.

Results

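The secretases are the proteases that cut the amyloid precursor protein (APP) and many other membrane proteins. Their mRNAs were followed here in differentiated neurosphere cultures from APPswe/PS1dE9 and wild-type (WT) mice. The genes were taken by class: Adam9, Adam10 and Adam17 as alpha secretases, Bace1 and its paralog Bace2 as beta secretases, and Ncstn, Aph1a, Aph1b, Aph1c and Psenen as components of gamma secretase. All probes, other than control probes, whose annotated transcript belongs to 1 of these 10 genes were used. This gave 14 of the 55681 probes, with 4 for alpha, 3 for beta and 7 for gamma secretase, and they covered 9 of the 10 genes. No probe was matched to Aph1c, which was not analysed here. A probe was kept where it was well above background for 1 genotype on at least 3 of the 4 arrays. Of the 14 secretase probes, 13 were kept, and 8 genes were tested; the probe of Ncstn was not kept.

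APPswe/PS1dE9 cultures came from mice that carry the APPswe and PS1dE9 transgenes of familial Alzheimer's disease. WT cultures carried neither. In the widely used line of this name both transgenes are driven by the mouse prion protein promoter, and the labels do not name the promoter. Both genotypes were on the C57BL/6 background. Neural precursor cells were taken from embryonic telencephalon at day 13, grown for 5 days as neurospheres with EGF and FGF2, and differentiated for 7 days on coated plastic with both factors withdrawn. Each of 4 Agilent arrays compared 1 APPswe/PS1dE9 RNA with 1 WT RNA. APPswe/PS1dE9 was labelled with Cy3 on replicates 1 and 2, and with Cy5 on replicates 3 and 4. The design text calls the 4 samples of each genotype biological replicates without saying which animals or litters they came from. The p-values therefore reflect how far arrays of 1 dye orientation differ among themselves, with variances moderated over all features. They cannot be read as a spread between animals or litters.

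Cleavage of APP by an alpha secretase falls inside the amyloid-beta sequence and releases a soluble ectodomain, so no amyloid-beta can be made from that molecule. Cleavage by the beta secretase BACE1 instead leaves a membrane stub, which gamma secretase cuts within the membrane to release amyloid-beta. Gamma secretase is a complex of presenilin, the catalytic subunit, with nicastrin (Ncstn), an APH1 protein and PEN2 (Psenen), and it also cuts Notch receptors during neural differentiation.

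Between 47.5% and 59.6% of probe spots were well above background in each channel of each array, and 0 spots were saturated. Across the 20605 features tested (13678 of them named genes), the log2 ratio of APPswe/PS1dE9 over WT had a median of 0.012, and its quartiles were -0.080 and 0.124. At a Benjamini-Hochberg adjusted p of 0.05 in limma, 1702 features were higher and 471 lower in APPswe/PS1dE9 cultures. With median centring in place of loess the split was 1312 higher and 1310 lower. Ratios of arrays with the same dye orientation correlated across features at Spearman 0.55 and 0.49, and those of different orientation at 0.11 to 0.27. On replicate 1 the Y-linked Eif2s3y was well above background in the APPswe/PS1dE9 channel alone and Xist in the WT channel alone, and on replicate 3 the reverse held. On replicates 2 and 4 Xist was well above background in both genotypes and Eif2s3y in neither. Tubb3, Gfap and Mbp, which mark neurons, astrocytes and oligodendrocytes, were well above background in both genotypes on all 4 arrays.

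Of the 8 secretase genes tested, 1 passed the threshold and 7 did not. Bace2 was higher in APPswe/PS1dE9 cultures, and no secretase gene was lower. Over all features 10.5% passed the same threshold, 8.26% as higher and 2.29% as lower, so 1 gene of 8 is near the share of the whole array. At an unadjusted p of 0.05, which 25.6% of all features passed, 2 of the 8 genes passed, Bace2 as higher and Aph1b as lower. In order of the fitted log2 ratio the genes ran from Bace2 at 0.64 to Adam9 at 0.13, Psenen at 0.081, Aph1a at 0.063, Adam17 at 0.056, Bace1 at -0.011, Adam10 at -0.11 and Aph1b at -0.20. The 95% interval of Bace2, 0.38 to 0.90, lay above that of Adam9, -0.052 to 0.32. All other neighbours in this order had overlapping intervals. The median over the 8 genes was 0.059. By class the median was 0.056 for 3 alpha secretase genes, 0.31 for 2 beta secretase genes and 0.063 for 3 gamma secretase genes. The beta secretase median averages 2 genes that differ, since it is made of Bace2 at 0.64 and Bace1 at -0.011. All 8 intervals lay within a 2-fold change in either direction.

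**Figure D1:**
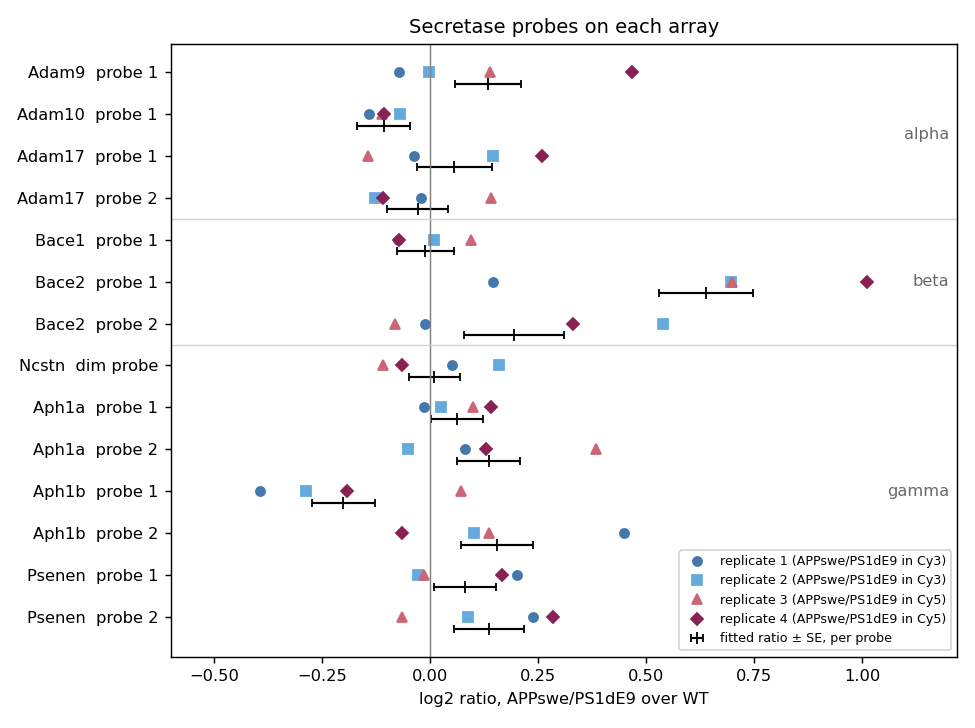
Log2 ratio of APPswe/PS1dE9 over WT (x axis) for each of the 14 secretase probes (rows, grouped by class), with 1 symbol for each of the 4 arrays and the fitted ratio ± SE as a black bar. Bace2 probe 1 is the row whose 4 arrays lie farthest to the right, from 0.15 to 1.01, while the second Bace2 probe has arrays on both sides of 0.

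Among the alpha secretases no gene passed the threshold. ADAM10 is the main constitutive alpha secretase of neurons and also sheds Notch receptors and N-cadherin. The normalized log2 intensity of Adam10 was 11.58, 11.52, 11.57 and 11.56 in APPswe/PS1dE9 cultures of replicates 1 to 4, against 11.73, 11.59, 11.68 and 11.66 in WT cultures. The groups did not overlap, and each APPswe/PS1dE9 culture lay just below every WT culture. Intensities that do not overlap between the genotypes were found in 12.5% of all features, 8.01% with APPswe/PS1dE9 higher and 4.49% with it lower. The log2 ratios were -0.14, -0.070, -0.11 and -0.11, and the fitted ratio was -0.11 ± 0.06 (SE, n = 4; limma adjusted p = 0.323). That is 0.928-fold, with an interval of 0.839 to 1.03-fold, so the difference was small and did not pass the threshold. Adam10 and Bace2 were the 2 members of 8 whose ratio had 1 sign on all 4 arrays, as did 28.6% of all features.

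ADAM17, also called TACE, sheds TNF and ligands of the EGF receptor and cuts APP mainly when stimulated. Adam17 had 2 probes. The first read 7.49, 7.15, 7.37 and 7.29 in APPswe/PS1dE9 cultures, against 7.53, 7.00, 7.51 and 7.04 in WT cultures. The groups overlapped, with 2 arrays above 0 and 2 below. Its fitted log2 ratio was 0.056 ± 0.09 (limma adjusted p = 0.737), with an interval of -0.15 to 0.27. The second probe of Adam17, well above background on 3 arrays in APPswe/PS1dE9 and on 2 in WT, was at -0.029 ± 0.07 (limma adjusted p = 0.840). Without replicate 4 the first probe was at -0.045, so the sign of Adam17 rested on that array.

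ADAM9 is a related metalloprotease that can shed APP and ADAM10 in cultured cells. Adam9 read 11.31, 11.31, 11.28 and 11.45 in APPswe/PS1dE9 cultures, against 11.38, 11.31, 11.14 and 10.99 in WT cultures. Its log2 ratios were -0.072 and -0.0016 on replicates 1 and 2, where APPswe/PS1dE9 was in Cy3, and 0.14 and 0.47 on replicates 3 and 4. The genotypes overlapped, and the fitted ratio was 0.13 ± 0.08 (limma adjusted p = 0.335).

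Bace2 was the 1 secretase gene that rose in APPswe/PS1dE9 cultures. BACE2 is the close relative of the beta secretase BACE1. Unlike BACE1 it is found mostly outside neurons, in glia and in peripheral tissues such as pancreas and skin, where it cuts the pigment protein PMEL. It cuts APP mainly inside the amyloid-beta sequence. The first Bace2 probe read 12.12, 12.07, 11.89 and 11.83 in APPswe/PS1dE9 cultures of replicates 1 to 4, against 11.97, 11.37, 11.19 and 10.82 in WT cultures. On replicates 2, 3 and 4 the WT cultures lay below all 4 APPswe/PS1dE9 cultures. The WT culture of replicate 1, at 11.97, lay within the APPswe/PS1dE9 range and made the groups overlap. The APPswe/PS1dE9 cultures averaged 11.98 ± 0.14 and the WT cultures 11.34 ± 0.48 (SD, n = 4 each), so most of the spread between arrays was in WT. The log2 ratios were 0.15, 0.70, 0.70 and 1.01, higher on 4 of 4 arrays. The fitted ratio was 0.64 ± 0.11 (SE), or 1.56-fold with a 95% interval of 1.30 to 1.87-fold (limma adjusted p = 0.0176).

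The second Bace2 probe did not pass the threshold. It read 8.75, 8.96, 8.51 and 8.66 in APPswe/PS1dE9 cultures, against 8.76, 8.42, 8.59 and 8.33 in WT cultures. Its log2 ratios were -0.012, 0.54, -0.081 and 0.33, with the higher values on replicates 2 and 4 and values near 0 on replicates 1 and 3. Fitted with every probe as its own feature, the second probe was at 0.19 ± 0.12 (limma adjusted p = 0.359) and the first at 0.64 (limma adjusted p = 0.0201). The first probe's ratio exceeded the second's on 4 of 4 arrays, by 0.44 ± 0.33 on the log2 scale (SD; exact sign-flip permutation test, two-sided, p = 0.125, which is the smallest p that 4 arrays allow). Adjusted over the 5 genes with 2 probes this p was 0.312.

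The call for Bace2 was kept in 11 of 17 alternative fits and lost in 6, and the ratio was above 0 in all 17. The 17 fits share the same arrays, and some only leave out replicates, so they are not separate tests. With the mean over both probes the ratio was 0.42 (limma adjusted p = 0.0627). With the scanner software's processed signals it was 0.62 (limma adjusted p = 0.0790). Without replicate 3 it was 0.72 (limma adjusted p = 0.0987) and without replicate 4 it was 0.56 (limma adjusted p = 0.147). On replicates 2 and 4 alone, whose 2 cultures gave the same result for Xist and Eif2s3y, the ratio was 0.85 (limma adjusted p = 0.0289). Those 2 arrays have opposite dye orientation and cannot be tested with a dye term, so that p stands without one and rests on 2 arrays.

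**Figure D2:**
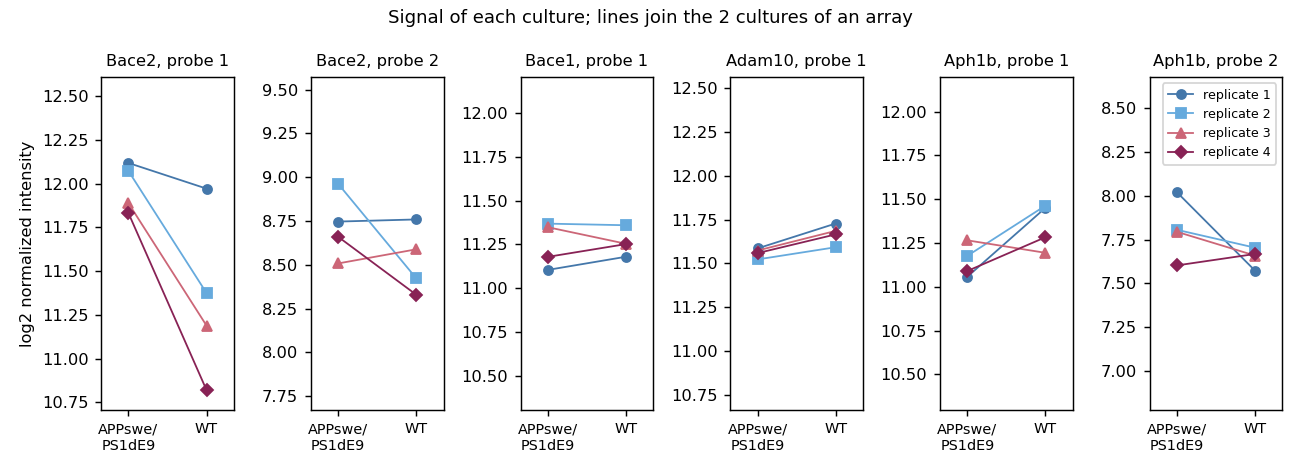
Log2 normalized intensity (y axis) of selected secretase probes in the APPswe/PS1dE9 and the WT culture (x axis), with a line for each of the 4 arrays. For Bace2 probe 1 the WT culture of replicate 1, at 11.97, lies within the APPswe/PS1dE9 range of 11.83 to 12.12 and the other WT cultures lie below it, while the 2 Aph1b probes slope in opposite directions on replicates 1 and 2.

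Bace1 showed no change that these arrays could resolve. BACE1 is the aspartic protease that makes the first cut towards amyloid-beta and is most abundant in neurons. Bace1 read 11.10, 11.37, 11.35 and 11.18 in APPswe/PS1dE9 cultures, against 11.18, 11.36, 11.25 and 11.25 in WT cultures. The genotypes overlapped throughout. The log2 ratios were -0.075, 0.0092, 0.095 and -0.073, and the fitted ratio was -0.011 ± 0.06 (limma adjusted p = 0.935). The interval for Bace1 was 0.890 to 1.11-fold. Set against each other on the same arrays, the Bace2 ratio exceeded the Bace1 ratio by 0.22, 0.69, 0.60 and 1.08. The mean difference was 0.65 ± 0.35 (SD, n = 4; exact sign-flip permutation test, two-sided, p = 0.125). This p is the smallest the design allows, so the test cannot pass 0.05 with 4 arrays.

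Markers of several cell types moved with genotype in the same cultures. Over all features 8.26% passed the adjusted threshold as higher and 2.29% as lower. Of 10 microglia and macrophage markers 9 were tested and 8 were higher in APPswe/PS1dE9 cultures, with a median log2 ratio of 2.07, and Ptprc was not kept. Their summed normalized intensity was 12202 to 16309 in APPswe/PS1dE9 cultures and 8648 to 10729 in WT cultures, and much of it came from Itgam, the marker that did not pass, at 0.11 ± 0.10 (limma adjusted p = 0.552). The sum of the other 8, on the 3 arrays with a value for each of them, was 4761 to 5684 in APPswe/PS1dE9 cultures and 1534 to 1683 in WT cultures. Of the 8 that passed, Tyrobp, Cx3cr1 and C1qa were kept through their APPswe/PS1dE9 signal alone. They were well above background in WT on 1, 2 and 2 arrays, so the count and the median rest in part on the filter. Aif1, a microglial calcium-binding protein, was at 2.22 ± 0.07. Of 10 ependyma and choroid plexus markers 8 were higher, with sums of 10762 to 15468 in APPswe/PS1dE9 cultures and 5988 to 6938 in WT cultures. Of 10 astrocyte markers 6 were higher, with sums of 195798 to 220633 in APPswe/PS1dE9 cultures and 131295 to 171868 in WT cultures, and Gfap was at 0.69 ± 0.06. Of 10 neuronal markers 1 was higher and 2 lower, and Tubb3 was at -0.13 ± 0.08, not past the threshold. Of 8 fibroblast and mural cell markers tested 2 were lower, and 1 of these, Lum, was kept through its WT signal alone. Of 8 endothelial markers listed only 4 were tested, since Cdh5, Tek, Cldn5 and Emcn were not kept. Of the 4, Flt1 and Egfl7 were higher. Flt1 was well above background on 3 APPswe/PS1dE9 arrays and 0 WT arrays, and Egfl7 passed narrowly (limma adjusted p = 0.04997). Of 8 markers of proliferating progenitors 1 was higher and 1 lower. Of 10 oligodendrocyte lineage markers 0 passed in limma, with 1 higher and 1 lower at an unadjusted p of 0.05. That unadjusted p was passed by 25.6% of all features. The part of these cell types in the Bace2 ratio was not tested. In RNA from whole cultures, a change in the number of cells of a type and a change in RNA per cell cannot be told apart.

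The 5 named genes whose 4 log2 ratios lay closest to those of Bace2, by Euclidean distance among 13635 named genes, were Tubb6, Gpat3, S100a11, Apol9b and Il1r1. Tubb6, a beta tubulin, was nearest at a distance of 0.101, with log2 ratios of 0.12, 0.76, 0.69 and 1.09. Gpat3, an enzyme of triglyceride synthesis, was at 0.169. S100a11, a calcium-binding protein, was at 0.211, the apolipoprotein L gene Apol9b at 0.222, and the interleukin 1 receptor Il1r1 at 0.223. The likeness is a description over 4 arrays, and genes chosen this way share the direction of Bace2 by construction.

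Among the gamma secretase components no gene passed the threshold. APH1 proteins form the scaffold on which nicastrin and presenilin assemble, and rodents have Aph1b and Aph1c as a duplicated pair beside Aph1a. Aph1b had the most negative ratio of the 8 genes. Its first probe read 11.06, 11.18, 11.27 and 11.09 in APPswe/PS1dE9 cultures, against 11.45, 11.46, 11.19 and 11.28 in WT cultures. APPswe/PS1dE9 was lower on 3 of 4 arrays and higher on replicate 3, and the groups overlapped. The log2 ratios were -0.39, -0.29, 0.071 and -0.19, and the fitted ratio was -0.20 ± 0.07 (limma adjusted p = 0.145). With median centring in place of loess Aph1b was at -0.35 and passed the threshold (limma adjusted p = 0.0297). That scaling placed the median of all features at -0.074 and lowered other members too, with Adam10 at -0.26 and Bace1 at -0.16. With the mean over both probes it was at -0.023.

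The second Aph1b probe ran the other way. It read 8.02, 7.81, 7.79 and 7.60 in APPswe/PS1dE9 cultures, against 7.57, 7.70, 7.66 and 7.67 in WT cultures. Its log2 ratios were 0.45, 0.10, 0.14 and -0.065, higher on 3 of 4 arrays, and its fitted ratio was 0.16 ± 0.08 (limma adjusted p = 0.314). The first probe lay below the second on 4 of 4 arrays, by -0.36 ± 0.35 (SD; exact sign-flip permutation test, two-sided, p = 0.125, adjusted 0.312 over 5 genes). The 2 probes thus had fitted ratios of opposite sign, neither past the threshold. Whether either probe also binds Aph1c transcripts was not tested.

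Psenen encodes PEN2, the small subunit with which presenilin is cut into its active form. Its first probe read 12.80, 12.53, 12.66 and 12.60 in APPswe/PS1dE9 cultures, against 12.60, 12.56, 12.67 and 12.44 in WT cultures. Replicates 1 and 4 were higher in APPswe/PS1dE9 and replicates 2 and 3 were near 0, and the fitted ratio was 0.081 ± 0.07 (limma adjusted p = 0.539). The second Psenen probe was at 0.14 ± 0.08 (limma adjusted p = 0.360).

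Aph1a, the main APH1 of the embryo in mice, did not pass the threshold with either of its 2 probes. Its first probe read 10.81, 10.88, 10.66 and 10.58 in APPswe/PS1dE9 cultures, against 10.82, 10.85, 10.56 and 10.44 in WT cultures. The fitted ratio was 0.063 ± 0.06, with an interval of 0.945 to 1.15-fold (limma adjusted p = 0.564), and the second probe was at 0.14 ± 0.07 (limma adjusted p = 0.316). Under median centring, which moved the median of all features to -0.074, Psenen was at -0.087 and Aph1a at -0.079. Both were close to that median. With loess they were at 0.081 and 0.063 and the median of all features at 0.012, so both fell farther than the median did. The cause of the sign change was not tested.

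Ncstn encodes nicastrin, the large glycoprotein of the complex that admits substrates by their short ends. Its probe was well above background on 1 array in APPswe/PS1dE9 and on 1 in WT, and so it was not tested in the main comparison. It read 6.63, 6.63, 6.68 and 6.72 in APPswe/PS1dE9 cultures, against 6.58, 6.47, 6.79 and 6.79 in WT cultures. Near background these values bound nicastrin mRNA only loosely. With no filter on dim probes its fitted ratio was 0.010 ± 0.06 (limma adjusted p = 0.957).

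Adam10, Aph1b and Aph1c lie on the same chromosome, and their promoter windows are shown because Adam10 and Aph1b had the 2 most negative ratios and Aph1c is the untested copy of Aph1b. Each window holds 300 bases around the annotated gene start in RefSeq (GRCm38.p6), 5′ to 3′ on the gene's strand, and capitals mark GGGCGG, the core of the GC box that SP1-family factors bind, on either strand. The windows are chr9:70678732-70679031 on the plus strand for Adam10, chr9:66795374-66795673 on the minus strand for Aph1b and chr9:66834657-66834956 on the minus strand for Aph1c.
Adam10: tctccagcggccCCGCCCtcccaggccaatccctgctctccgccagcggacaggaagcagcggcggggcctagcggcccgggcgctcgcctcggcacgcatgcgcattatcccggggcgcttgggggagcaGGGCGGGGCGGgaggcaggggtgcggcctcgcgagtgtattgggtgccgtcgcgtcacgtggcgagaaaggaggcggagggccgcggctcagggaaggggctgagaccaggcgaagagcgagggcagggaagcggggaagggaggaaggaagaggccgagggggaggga
Aph1b: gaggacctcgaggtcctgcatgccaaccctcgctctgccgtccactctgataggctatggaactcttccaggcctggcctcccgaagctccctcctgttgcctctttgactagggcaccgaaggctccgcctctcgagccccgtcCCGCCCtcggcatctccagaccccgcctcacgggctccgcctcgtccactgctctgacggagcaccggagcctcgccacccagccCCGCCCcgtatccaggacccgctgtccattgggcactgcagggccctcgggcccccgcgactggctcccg
Aph1c: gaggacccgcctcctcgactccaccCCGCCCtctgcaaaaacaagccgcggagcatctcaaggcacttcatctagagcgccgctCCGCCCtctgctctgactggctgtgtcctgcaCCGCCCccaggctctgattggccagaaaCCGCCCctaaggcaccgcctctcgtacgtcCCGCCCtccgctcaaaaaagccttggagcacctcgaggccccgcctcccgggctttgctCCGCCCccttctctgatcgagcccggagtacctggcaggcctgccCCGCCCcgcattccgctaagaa
The Adam10 window held 3 matches, of which 2 overlap by 1 base in the same G-rich run, the Aph1b window held 2 and the Aph1c window held 7. Over the 8 windows found for 7 of the 10 genes, 5 held GGGCGG, as did 35.7% of all 32851 windows of this length in RefSeq. CCAAT, the core of the CCAAT box, was in 5 of the 8 windows and in 37.4% of all windows. TATAAA, the core of the TATA box, was in 0 of the 8 and in 13.6% of all windows. The STAT site, searched as TTCNNNGAA, was in 0 of the 8 and in 8.30% of all windows. All motifs were searched on both strands. The matches describe the letters of these windows and no binding was measured.

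Of the genes that work with these secretases, the presenilin Psen2 and the substrate App were also read. Psen2, a presenilin and so a catalytic subunit of gamma secretase, was higher in APPswe/PS1dE9 cultures, with log2 ratios of 0.19, 0.17, 0.53 and 0.38 and a fitted ratio of 0.32 ± 0.06 (1.25-fold, limma adjusted p = 0.0282). This call was kept in 8 of 17 alternatives and lost in 9, median centring among them at 0.19 (limma adjusted p = 0.299), as well as the fits without replicate 2, 3 or 4. App was at 0.23, 0.27, 0.00060 and -0.030, higher on the arrays with APPswe/PS1dE9 in Cy3 and level on the others, and its fitted ratio was 0.12 ± 0.06 (limma adjusted p = 0.280).

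Most related proteases did not pass the threshold. Of 16 relatives listed, 12 were tested, 2 were higher and 0 lower, with a median log2 ratio of 0.12 against 0.012 over all features. The 2 genes are 16.7% of those tested, against 10.5% of all features. The list was chosen with earlier results of these data known, so this share is a description. At an unadjusted p of 0.05, 4 were higher and 0 lower, where 25.6% of all features passed in either direction. Ctsd, the lysosomal aspartic protease cathepsin D, was at 0.81 ± 0.06 (1.75-fold, limma adjusted p = 0.00112), and its other probe was at 0.80. Adam15, a membrane-anchored metalloprotease of the same family as the alpha secretases, was at 0.47 ± 0.07 (1.39-fold, limma adjusted p = 0.0104). The call for Ctsd was kept in all 17 alternatives, and that for Adam15 in 13. Without replicate 3 or without replicate 4, Ctsd was the 1 relative past the threshold.

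Among genes for proteins that mature, carry or inhibit the secretases, all that passed were higher in APPswe/PS1dE9 cultures. Of 33 regulators listed, 32 were tested, 8 were higher and 0 lower, which left 24 that did not pass. The 8 genes are 25% of those tested, against 10.5% of all features, and 78.3% of the calls over all features were higher. This list too was chosen with earlier results known, so its share is a description. The median log2 ratio of the list was 0.10. At an unadjusted p of 0.05, 12 were higher and 2 lower, where 25.6% of all features passed in either direction. Ifitm3, an interferon-induced membrane protein that also binds gamma secretase, had the largest ratio of the list at 1.77 ± 0.07 (3.42-fold, limma adjusted p = 0.00018). Rhbdf2 and Rhbdf1, the iRhoms that escort ADAM17 to the cell surface, were at 1.04 ± 0.08 (limma adjusted p = 0.00118) and 0.37 ± 0.08 (limma adjusted p = 0.0337). In WT no array had Rhbdf2 well above background. Its fitted difference was 2.06-fold, with an interval of 1.80 to 2.37-fold. A bound was taken against the lowest signal well above background or the probe's own, whichever was higher on each array. That bound gave the same 2.06-fold, so it set no separate minimum, and its per-channel values are open to dye bias. Rhbdf2 was kept through its APPswe/PS1dE9 signal alone, and with the processed signals its ratio was 3.07 (limma adjusted p = 0.00442). Among the 31 regulators well above background in both genotypes on all 4 arrays, 7 passed the threshold. Frmd8, which holds the iRhoms at the surface, was at 0.37 ± 0.07 (limma adjusted p = 0.0230).

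Tspan15 and Tspan17, tetraspanins that bind ADAM10, were at 0.40 ± 0.07 (limma adjusted p = 0.0212) and 0.26 ± 0.06 (limma adjusted p = 0.0465). Timp1, a metalloprotease inhibitor that also acts on ADAM10, was at 0.76 ± 0.08 (limma adjusted p = 0.00349). Timp2, known mainly as an inhibitor of matrix metalloproteases, was at 0.49 ± 0.06 (limma adjusted p = 0.00738), and its other probe at 0.72. Rhbdf1 and Tspan17 were named after their values were seen. Of the 17 alternatives the call was kept in 15 for Timp1, 11 for Timp2, 10 each for Tspan15 and Frmd8, 6 for Rhbdf1 and 4 for Tspan17, while Ifitm3 kept it in 17 and Rhbdf2 in all 16 that gave a value. The count of 8 was 3 without replicate 3 and 2 without replicate 4.

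Substrates of the secretases moved in both directions. Of 50 substrates listed, 42 were tested. The threshold was passed by 11 as higher and by 3 as lower, and 28 did not pass. The 14 genes are 33.3% of those tested, while 8.26% of all features were higher and 2.29% lower. The substrate list was also chosen with earlier results known, so its share is a description. Of the 14, Trem2 and Tnf were kept through their APPswe/PS1dE9 signal alone, so the share rests in part on the filter. Tnf, named after its values were seen, was well above background on 4 APPswe/PS1dE9 arrays and 0 WT arrays. The median log2 ratio of the 42 substrates, 0.018, was close to the 0.012 of all features. Trem2, a microglial receptor shed by ADAM proteases, was at 1.60 ± 0.08 (3.03-fold, limma adjusted p = 0.000276). It was well above background in WT on 1 array and was kept through its APPswe/PS1dE9 signal. Its size depended on how background was handled, and it was 2.84 with the processed signals (limma adjusted p = 0.0335). Vcam1, an adhesion molecule shed by ADAM17, was at 1.16 ± 0.10 (2.23-fold, limma adjusted p = 0.00185), and its other probe was at 0.69. Cx3cl1, the neuronal chemokine fractalkine that ADAM10 and ADAM17 release, was at 0.94 ± 0.09 (limma adjusted p = 0.00255). The cytokine receptors Tnfrsf1a and Il6ra were at 0.77 ± 0.07 and 0.69 ± 0.06 (limma adjusted p = 0.00218 for each). The other probe of Tnfrsf1a was at 0.47. Plxdc2, a membrane protein found as a BACE1 substrate, was at 0.62 ± 0.06 (limma adjusted p = 0.00290).

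The 3 substrates that fell were named after their values were seen. Efnb2, an ephrin ligand, was at -0.49 ± 0.09 (limma adjusted p = 0.0190), the Notch ligand Dll1 at -0.37 ± 0.07 (limma adjusted p = 0.0272) and the ephrin receptor Epha4 at -0.28 ± 0.07 (limma adjusted p = 0.0490). Their calls were kept in 12, 10 and 5 of 17 alternatives. The count of 14 substrates past the threshold was 7 without replicate 3 and 5 without replicate 4. The microglia and macrophage markers given above moved with these lists too, and their part in the list counts was not tested.

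**Figure D3:**
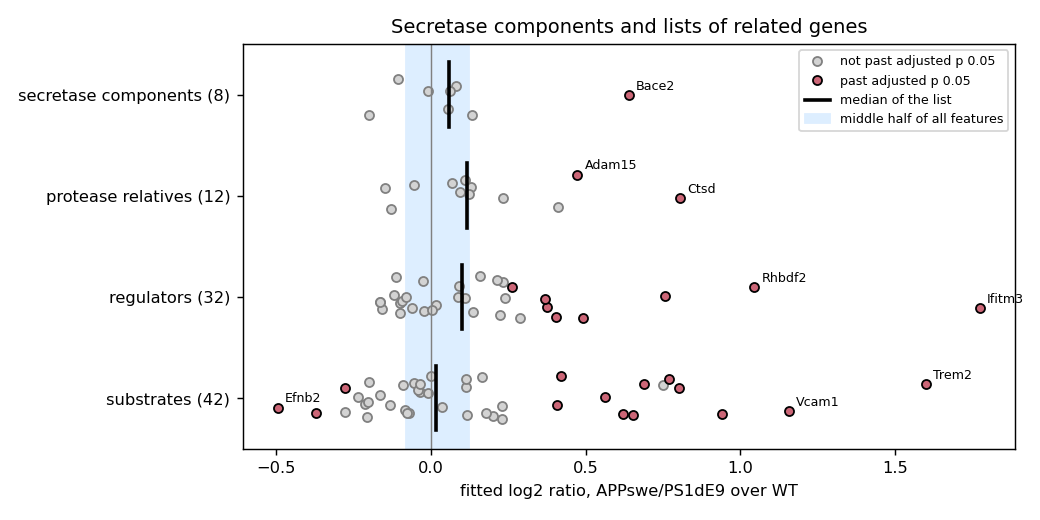
Fitted log2 ratio of APPswe/PS1dE9 over WT (x axis) for each tested gene of the secretase components and of the 3 lists of related genes (rows), with genes past an adjusted p of 0.05 filled, the median of each list as a black bar and the middle part of all features, from quartile to quartile, shaded. The medians of 0.059, 0.12, 0.10 and 0.018 lie within the shaded range of -0.080 to 0.124, and the filled genes lie mostly to the right of 0.

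**Figure D4:**
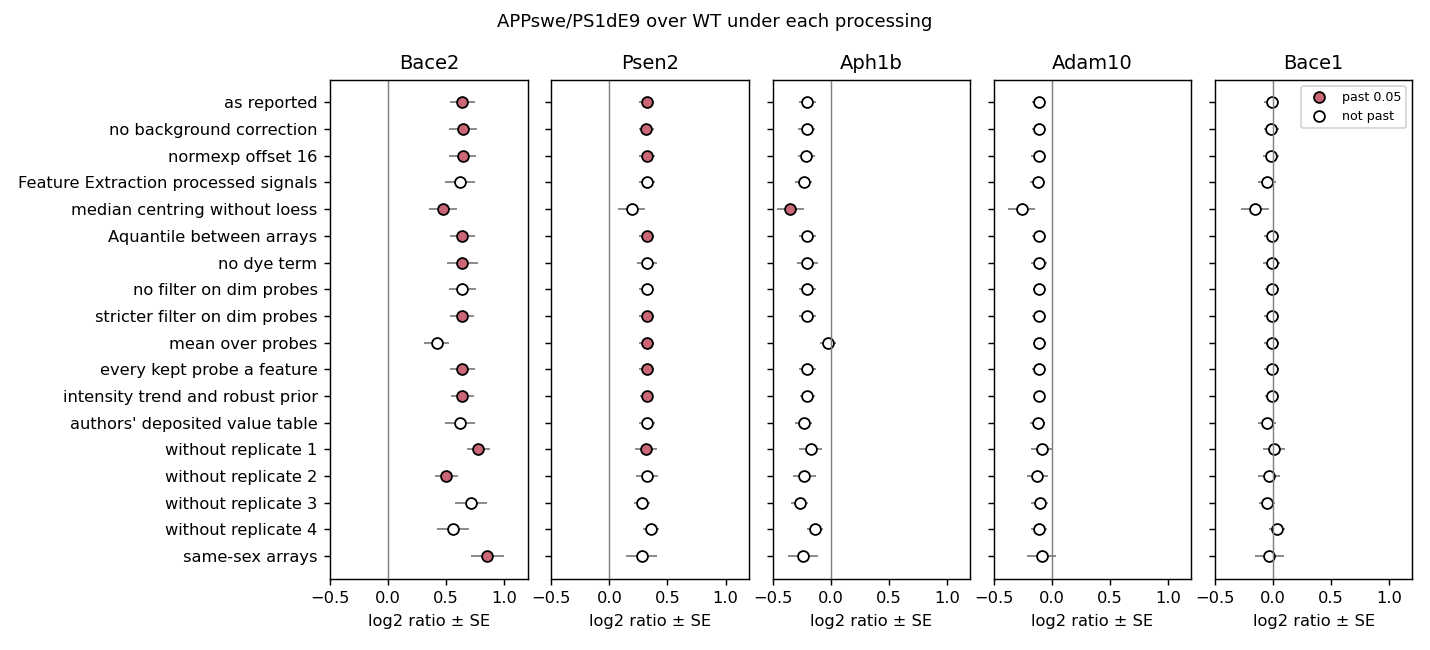
Log2 ratio ± SE of APPswe/PS1dE9 over WT (x axis) for secretase genes under the reported processing and each alternative (rows), filled where the adjusted p passed 0.05. The Bace2 ratio lies to the right of 0 in all 17 alternatives and is filled in 11, and Aph1b is filled with median centring alone.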

How the data were processed

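Gene expression was measured on 4 Agilent 2-colour arrays, each with 1 APPswe/PS1dE9 and 1 WT RNA, read with Feature Extraction 11.0.1.1 per the file headers. The authors deposited scanner files with median foreground and background intensity per spot and channel, with no normalization. Processed intensity columns, which per the file headers are corrected for background and dye, stand in the same deposited files. The deposited log10 ratio of Cy5 over Cy3 gave the direction check. The authors also deposited a value table of log2 ratios for 29350 of 59305 probe spots. Its scale, centring and direction are unstated and were found by setting it against the scanner files (slopes of -1.00, -1.00, 1.00 and 1.00 on log2 Cy5 over Cy3, so that it runs APPswe/PS1dE9 over WT, uncentred). Its column medians were -0.0797, -0.155, -0.0373 and -0.0378.

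Here, median signals were corrected by normexp (offset 50) and loess within arrays in limma 3.58.1 (R 4.3.3). After control and outlier spots were removed, the mean was taken over the spots of each probe. The filter for signal well above background kept the same 29350 spots and left 26931 of 55681 probes. Names came by accession from a RefSeq table of GRCm38.p6 (27509 probes, 20887 symbols), and no coordinates were moved to it from the array's mm9 annotation. The kept probe of highest mean intensity represented a gene. The intensities printed are log2 values after loess and Aquantile. lmFit and eBayes were fitted to all 20605 features, with terms for genotype and dye and with 2 residual and 4.13 prior degrees of freedom. Tests were two-sided, and p-values were Benjamini-Hochberg adjusted over all features. Fitted ratios stand ± SE over 4 arrays, and their number limits the precision. On simulated data of 20605 features, 96 of 100 features changed by 0.5 on the log2 scale were recovered and 99 of 100 changed by 1, with 20 false calls. The simulated errors were normal and independent with the fitted variances, so the assumptions of the fit held by construction. Recovery in the real arrays was not measured by it.

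The text names all members with their probes, Psen2 and App, of each related list up to 6 genes of smallest p past the threshold, the 5 nearest genes to the member of smallest p, and Aif1, Gfap, Tubb3 and Mbp. Members and lists were chosen with earlier results of these data known. Alternatives covered background, signal source, normalization, dye term, filter, probe choice, moderation, the deposited table and each replicate left out. A fit on replicates 2 and 4 alone was chosen after seeing the data.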

Additional observations from a re-analysis of the deposited data

How the results depend on the processing

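Of 17 alternatives, 11 kept Bace2 past the threshold. Of the secretase genes, 0 passed in limma with the processed signals, with no filter, with the mean over probes, with the deposited table and without replicate 3 or replicate 4; Bace2 was then at adjusted p of 0.0627 to 0.147. Median centring without loess gave 2, Bace2 and Aph1b. Over all features, the counts higher and lower were 719 and 241 with processed signals, 722 and 239 with the deposited table, 960 and 103 with no filter, and 474 and 11 on replicates 2 and 4 alone. Lower calls numbered 286 with no background correction, 259 with no dye term and 1310 with median centring. Regulators past the threshold numbered 3 with processed signals and with the deposited table, 5 with median centring and 4 with no filter, and substrates 8 with processed signals and with the deposited table. With median centring, which put the median of all features at -0.074, the fit gave each gene named here the same SE of 0.118. The causes of these shifts were not tested. Leaving out each replicate in turn gave 0 to 1 secretase genes, 374 to 2240 features higher, 7 to 509 lower, 1 to 3 relatives, 2 to 8 regulators and 5 to 14 substrates, with the lowest counts higher and lower without replicate 4. The Bace2 ratio less the Bace1 ratio was 0.50 to 0.79 in these fits. Signs turned for Adam17 (-0.072 with processed signals and with the deposited table, and below 0 without replicate 4), for Adam9 at -0.015, Aph1a at -0.079, Psenen at -0.087, App at -0.061 and Mbp at -0.041 with median centring, for Mbp at -0.018 with the mean over probes, and for Bace1 without replicate 1 or 4. With each replicate left out in turn, Bace1 lay at -0.053 to 0.031 and Adam17 at -0.045 to 0.16. None of these genes was past the threshold. The comparison is already paired within arrays: each array pairs 1 culture of each genotype, its ratio is the value tested, and no further replicate block can be added. With 4 arrays in 2 dye orientations, each test has 2 residual degrees of freedom beside 4.13 from the prior, and dim probes such as that of Ncstn carry little signal over background.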
